A study of Mus musculus with 25 samples.

Results

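The 8 genes described here are Hmgcs1, Idi1, Fdps, Fdft1, Sqle, Lss and Cyp51, which code for enzymes of cholesterol synthesis, and Insig1, which codes for a regulator of the pathway and not for an enzyme. They were taken by their symbol in the platform annotation, on transcript clusters with a single symbol, and are 8 of 19938 genes on the arrays. Their levels were read in phagocytes sorted from Peyer's patches, lymphoid organs in the wall of the mouse gut. The samples were 25 Affymetrix Mouse Gene 1.0 ST arrays in 7 groups. Every group came from female wild-type C57BL/6 mice aged 6 to 8 weeks, and each replicate pooled 42 mice.

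The untreated groups were TIM-4+ LysoMac (3 arrays), TIM-4- LysoMac (3), DN conventional dendritic cells (cDC, 3), CD8a+ cDC (3) and CD11b+ cDC (5). LysoMac are lysozyme-rich macrophages of the patch, gated by high CD11c, low MHC class II, SIRPa, BST2 and CD4, with or without TIM-4. The cDC were CD11c-high, MHC class II+ and BST2-, and were SIRPa+ with intermediate CD11b (CD11b+), SIRPa+ without CD11b or CD8a (DN), or SIRPa- with CD8a (CD8a+). The treated groups were CD8a+ cDC (5 arrays) and CD11b+ cDC (3) taken 9 h after oral R848, a synthetic ligand of Toll-like receptor 7, by the same gates. The series design calls the replicates independent, and the titles of the R848 samples also say steady state.

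Cholesterol is built from acetyl-CoA through mevalonate, the isoprenoids, squalene and lanosterol. When sterols in the endoplasmic reticulum run low, SCAP escorts the transcription factor SREBP2 to the Golgi for cleavage, and the freed factor turns on the genes of the pathway together. INSIG proteins hold SCAP back when sterols are plentiful, and in macrophages loaded with sterol the LXR receptors turn on efflux instead. In macrophages, interferon and Toll-like receptor signals are known to change sterol synthesis.

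The promoters are shown because the genes are known to share control by SREBP. RefSeq windows on GRCm38.p6, running from 250 bases before to 50 bases after the annotated start, were found for 5 of the 8 genes (Hmgcs1, Idi1, Lss, Cyp51 and Insig1). The 250 bases before the start are printed for 3 genes on which results below turn, 5′ to 3′ on the gene's own strand. The genes are Hmgcs1 (chr13:119690101-119690350, plus strand), Idi1 (chr13:8885356-8885605, plus strand) and Cyp51 (chr5:4104698-4104947, minus strand). Capitals mark the sterol regulatory element (SRE) consensus TCACNCCAC and the CCAAT box, each read on either strand, so that the box also appears as ATTGG. No 2 marked motifs overlap.
Hmgcs1: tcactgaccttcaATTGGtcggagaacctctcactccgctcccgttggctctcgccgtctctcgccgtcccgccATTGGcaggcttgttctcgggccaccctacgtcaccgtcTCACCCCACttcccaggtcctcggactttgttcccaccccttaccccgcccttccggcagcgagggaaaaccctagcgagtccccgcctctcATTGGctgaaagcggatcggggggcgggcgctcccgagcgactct
Idi1: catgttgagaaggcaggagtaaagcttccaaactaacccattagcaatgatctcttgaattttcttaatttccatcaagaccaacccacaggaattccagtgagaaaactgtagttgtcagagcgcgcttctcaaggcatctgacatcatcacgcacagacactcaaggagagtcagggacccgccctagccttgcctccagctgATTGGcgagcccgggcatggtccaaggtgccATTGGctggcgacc
Cyp51: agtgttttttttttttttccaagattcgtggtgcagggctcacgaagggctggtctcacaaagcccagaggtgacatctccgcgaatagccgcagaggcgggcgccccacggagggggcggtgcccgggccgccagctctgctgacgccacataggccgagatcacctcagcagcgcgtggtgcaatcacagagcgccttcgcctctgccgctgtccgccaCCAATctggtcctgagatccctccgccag

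The SRE consensus occurred in 1 of the 5 windows, that of Hmgcs1, where it began at position -137 from the start. It occurred in 1.24% of 32851 mouse promoter windows of the same length. The CCAAT box occurred in 5 of 5 windows, against 37.4% of all windows. The GC box GGGCGG, the motif of the SP1 family, also occurred in 5 of 5 windows, against 35.7% of all windows. A match describes the letters only.

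The deposited values were log2 signals in which 3 sets of arrays had their rows in different orders. One set held the 14 untreated arrays of CD11b+ cDC, DN cDC and LysoMac, another the 3 untreated CD8a+ arrays and the last the 8 R848 arrays, and the row names fitted the R848 set. Rows of the untreated sets were matched to it by their order, and only rows with a secure match were used. All 8 genes had a value after R848, 7 in the set of 14 (all but Sqle), and 4 in the untreated CD8a+ arrays (Idi1, Fdps, Fdft1 and Insig1). Each difference is given in log2 units beside its SE from limma, and a gene was called at an adjusted p under 0.05 over all genes tested. Comparisons across sets (R848 against untreated, and any with untreated CD8a+ cDC) carry further limits. There the groups and the array sets cannot be told apart, the row matching favours small responses, and the scale differed. Across all genes the median difference was -0.19 for untreated CD8a+ against untreated CD11b+ cDC and 0.18 for the R848 response of CD8a+ cDC. In the first of these, 1248 genes were called higher and 5572 lower, but 3258 and 2144 once all arrays were set to a common median. In the R848 response of CD8a+ cDC the same step changed 6812 higher and 2412 lower to 3546 and 3323, and in that of CD11b+ cDC 2904 and 3894 to 4095 and 3009. For DN against CD11b+ cDC it changed 420 and 282 to 326 and 587, and for LysoMac against CD8a+ cDC 5900 and 2044 to 2761 and 4802. Array medians lay between 4.52 and 4.90, and each array correlated at 0.989 or more with the rest of its group.

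In untreated cells most markers followed the labels. Timd4 averaged 10.79 in TIM-4+ and 5.66 in TIM-4- LysoMac, but also 7.68 in untreated CD11b+ cDC. The cDC1 gene Xcr1 averaged 10.91 in untreated CD8a+ cDC, against 3.91 in untreated CD11b+ cDC. Of 4 measured cDC1 markers, 3 were higher and 1 was lower in that comparison. The macrophage gene Mertk averaged 8.84 in TIM-4+ LysoMac, against 3.45 in untreated CD11b+ cDC. Of 7 macrophage markers, 6 were higher in LysoMac than in CD11b+ and DN cDC, and Fcgr1 was lower, at -0.31. Itgam, the gene for CD11b, averaged 7.07 in untreated CD11b+ cDC. After R848 it averaged 4.21 in CD8a+ and 4.20 in CD11b+ cDC, so this defining marker of the CD11b+ gate was not higher there at the RNA level. Of 6 cDC2 markers, 1 rose and 4 fell after R848 in CD11b+ cDC. Of 6 measured cDC1 markers, 1 rose and 4 fell after R848 in CD8a+ cDC, with Xcr1 at 8.59 in R848 and 10.91 in untreated CD8a+ cDC and Cadm1 at 6.33 and 8.98.

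**Figure D1:**
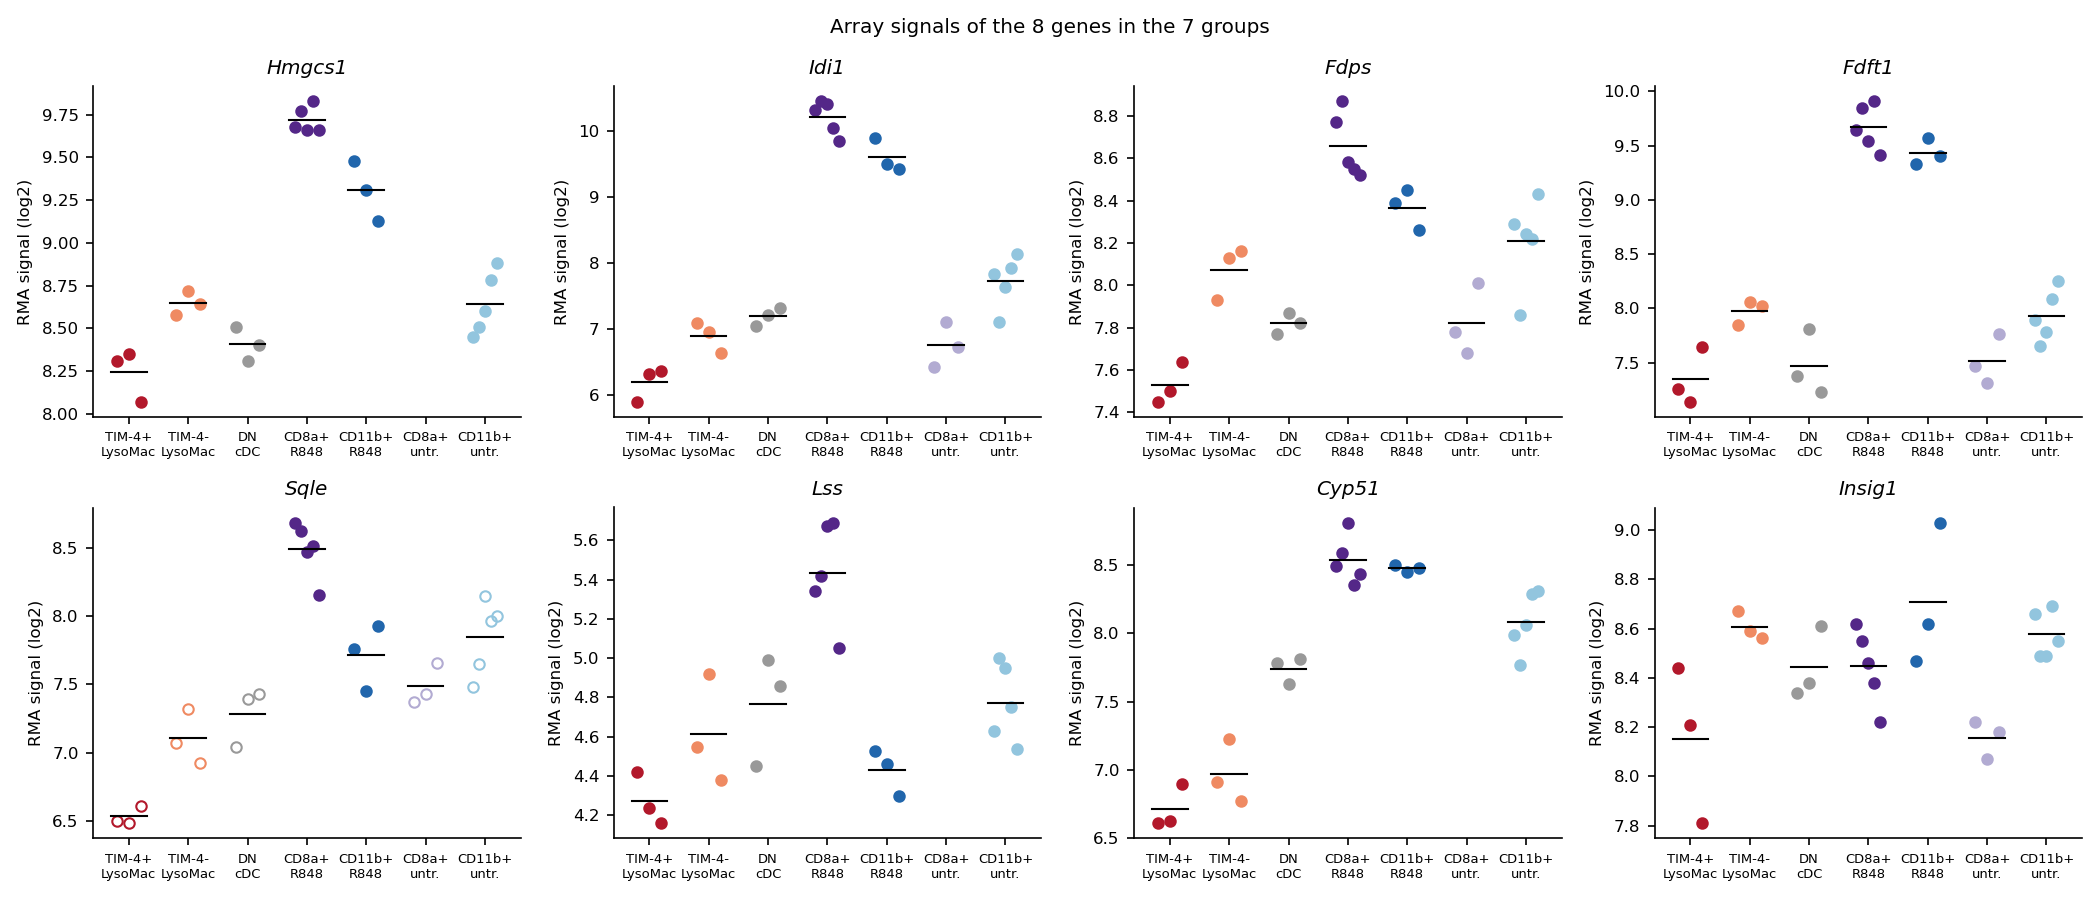
Log2 signal of each of the 8 genes (vertical axis, 1 panel per gene) in every array of the 7 groups (horizontal axis), with the group mean as a line. Open circles stand for Sqle values from rows matched less securely, and groups without a usable row are blank. Idi1 and Fdft1 stand highest in the R848 arrays, and Cyp51 lowest in the LysoMac arrays.

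The largest differences among the 8 genes followed R848. Idi1, which isomerises isopentenyl diphosphate, stood at 10.32, 10.45, 10.40, 10.04 and 9.84 in R848 CD8a+ cDC, against 6.43, 7.10 and 6.73 in untreated CD8a+ cDC. It stood at 9.89, 9.50 and 9.42 in R848 CD11b+ cDC, against 7.84, 7.10, 7.63, 7.92 and 8.14 in untreated CD11b+ cDC. In both cell types every R848 array lay above every untreated array. The rise was 3.46 ± 0.20 in CD8a+ cDC (adjusted p = 7.0e-12), and 1.87 ± 0.20 in CD11b+ cDC, or 3.67-fold (adjusted p = 2.2e-07). A second cluster with the symbol Idi1, whose row neighbours lie on chromosome 2 and not beside the gene on chromosome 13, gave 3.50 ± 0.18 in CD8a+ and 1.63 ± 0.18 in CD11b+ cDC.

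Fdft1, the squalene synthase that commits farnesyl diphosphate to sterols, stood at 9.64, 9.85, 9.54, 9.91 and 9.41 in R848 CD8a+ cDC, against 7.47, 7.31 and 7.76 in untreated CD8a+ cDC. In R848 CD11b+ cDC it stood at 9.33, 9.57 and 9.40, against 7.89, 7.65, 7.78, 8.09 and 8.25 in untreated CD11b+ cDC. Neither pair of groups overlapped. The rise was 2.16 ± 0.15 in CD8a+ cDC (adjusted p = 2.3e-10) and 1.50 ± 0.15 in CD11b+ cDC (adjusted p = 1.4e-07). Fdps, which makes farnesyl diphosphate, stood at 8.77, 8.87, 8.58, 8.55 and 8.52 in R848 CD8a+ cDC, against 7.78, 7.68 and 8.01 in untreated CD8a+ cDC. All treated arrays again lay above the untreated ones, and the rise was 0.83 ± 0.11 (adjusted p = 1.9e-06). In CD11b+ cDC the Fdps difference was 0.16 ± 0.11 (adjusted p = 0.258), and the groups overlapped.

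Of the 4 genes with a value in CD8a+ cDC, 3 rose after R848. The other, Insig1, differed by 0.29 ± 0.13 (adjusted p = 0.053), with no overlap. In this comparison 56.3% of all genes were called (41.6% higher), so the count alone says little about the pathway. The median difference of the 4 genes was 1.50, against 0.18 for all genes. In CD11b+ cDC 4 of 7 rose and none was called lower, at a background of 40.9% called (17.5% higher), and their median was 0.39, against -0.03 for all genes. Hmgcs1, which makes the hydroxymethylglutaryl-CoA that enters the mevalonate route, stood at 9.48, 9.31 and 9.13 in R848 CD11b+ cDC, against 8.45, 8.51, 8.60, 8.78 and 8.88 in untreated CD11b+ cDC. It rose by 0.66 ± 0.10 (adjusted p = 2.8e-05), with no overlap. Cyp51, the lanosterol demethylase, stood at 8.50, 8.45 and 8.48 in R848 CD11b+ cDC, against 7.99, 7.77, 8.06, 8.29 and 8.31 in untreated CD11b+ cDC, a rise of 0.39 ± 0.13 (adjusted p = 0.018) with no overlap. The Cyp51 call was lost without replicate 1 (0.38, adjusted p = 0.057) or replicate 3 (0.39, adjusted p = 0.051) of the R848 CD11b+ arrays. Lss, the cyclase that makes lanosterol, differed by -0.34 ± 0.16 (adjusted p = 0.086) at a low signal, with every R848 array below every untreated one. Insig1 differed by 0.13 ± 0.13 (adjusted p = 0.433). With a looser match of rows, Sqle differed by -0.14 ± 0.15 in CD11b+ cDC (adjusted p = 0.482). In CD8a+ cDC it then rose by 1.01 ± 0.15 (adjusted p = 1.0e-05).

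**Figure D2:**
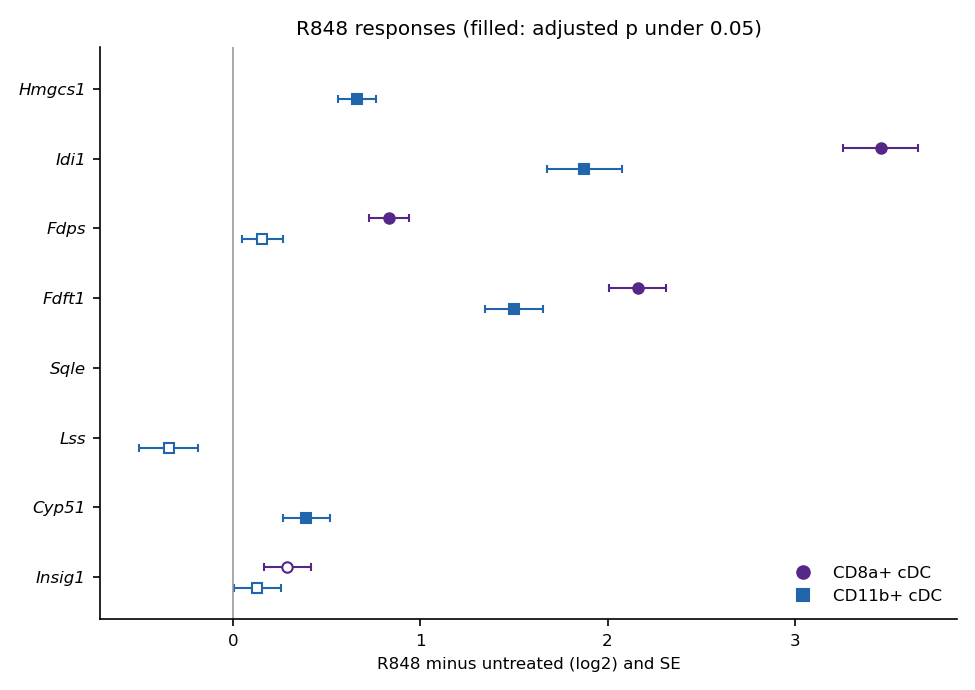
Difference between R848 and untreated arrays in log2 units (horizontal axis) with its SE, for CD8a+ cDC (circles, upper) and CD11b+ cDC (squares, lower) of each gene. Filled symbols passed an adjusted p of 0.05, a missing symbol means no secure row, and Idi1 at 3.46 and 1.87 lies farthest to the right in both.

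The responses of the 2 cell types were then compared directly, as the R848 response of CD8a+ cDC minus that of CD11b+ cDC. It was larger in CD8a+ cDC for 3 of 4 genes, at a background of 32.9% called (26.9% higher). The difference was 1.58 ± 0.28 for Idi1 (adjusted p = 2.6e-04), 0.68 ± 0.15 for Fdps (adjusted p = 0.0022) and 0.66 ± 0.22 for Fdft1 (adjusted p = 0.025), and 0.16 ± 0.18 for Insig1 (adjusted p = 0.504). The median of all genes was 0.21 here, and with a common median 1404 genes were called higher and 1707 lower, against 3879 and 862 as deposited. On that scale Idi1 was still called at 1.34, while Fdps at 0.44 and Fdft1 at 0.42 were not, and Insig1 changed sign to -0.08. Fdft1 also lost its call without replicate 1 (0.64) or 2 (0.56) of untreated CD8a+ cDC and without replicate 1 (0.61) or 3 (0.64) of R848 CD11b+ cDC. With a looser match of rows, Sqle was called too, at 1.15 ± 0.21 (adjusted p = 3.5e-04). Lss was then called at 1.43 and Hmgcs1 was not, at -0.23, both on rows that are not secure.

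Transcripts of other cells moved with R848. Of the B cell markers, 4 of 4 measured in CD8a+ cDC and 5 of 5 in CD11b+ cDC rose, and the mean level of 4 of them ran from 6.02 to 6.88 in R848 CD8a+ arrays, against 4.38 to 4.96 in untreated ones. It ran from 7.38 to 8.07 in R848 CD11b+ arrays, against 5.59 to 6.32 in untreated ones. Cd79a, part of the B cell receptor, rose by 3.85 ± 0.35 in CD8a+ cDC and by 1.83 ± 0.35 in CD11b+ cDC. T cell markers rose for 4 of 4 genes in CD8a+ cDC and fell for 4 of 5 in CD11b+ cDC. The part of these transcripts in the rise of Idi1 and Fdft1 was not tested. Fewer cells of a type and less RNA per cell cannot be told apart in sorted pools of this kind.

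The other genes of the pathway did not all move with the 8. Of 8 further synthesis enzymes measured in CD8a+ cDC, 4 rose and none was called lower after R848, with Msmo1 at 1.33 ± 0.18, Sc5d at 1.03 ± 0.20, Mvd at 0.92 ± 0.14 and Hsd17b7 at 0.85 ± 0.18. Msmo1, Sc5d and Hsd17b7 act on sterols after lanosterol, and Mvd makes isopentenyl diphosphate. Of 9 measured in CD11b+ cDC, 3 rose and 2 fell. The sterol reductase Tm7sf2 rose by 1.32 ± 0.16, Hsd17b7 by 0.86 ± 0.18 and Nsdhl by 0.79 ± 0.15, while Dhcr7, which makes cholesterol from its last precursor, fell by 1.01 on the log2 scale (SE 0.30).

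Among the genes that sense sterol, Srebf2, which codes for SREBP2, rose by 0.51 ± 0.15 in CD8a+ cDC (adjusted p = 0.0075) and was at 0.21 ± 0.15 in CD11b+ cDC (adjusted p = 0.27). Scap differed by -0.79 ± 0.13 in CD8a+ cDC and by -0.70 ± 0.13 in CD11b+ cDC, both called lower. In the regulation list 2 of 7 genes rose and 3 fell in CD8a+ cDC, and 2 of 7 rose and 2 fell in CD11b+ cDC. The acid lipase Lipa, which frees cholesterol from lysosomal esters, differed by -1.82 ± 0.19 in CD8a+ cDC and by -1.26 ± 0.19 in CD11b+ cDC, both called lower. The lipoprotein receptor Scarb1 was called lower in both as well, at -1.95 ± 0.15 and -1.27 ± 0.15. Among uptake genes 1 of 10 rose and 2 fell in CD8a+ cDC, and 1 of 10 rose and 4 fell in CD11b+ cDC. Abcg1, which exports cholesterol, rose by 1.45 ± 0.23 in CD8a+ cDC and by 0.98 ± 0.23 in CD11b+ cDC. Of the LXR, efflux and esterification genes, 3 of 5 rose and 1 fell in CD8a+ cDC, and 2 of 7 rose and 2 fell in CD11b+ cDC.

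Fatty acid synthesis, the other branch under SREBP control, was split. Scd1, the stearoyl-CoA desaturase, rose by 1.91 ± 0.43 in CD8a+ cDC and by 1.97 ± 0.43 in CD11b+ cDC. Fasn, the fatty acid synthase, was called lower at -1.06 ± 0.17 and -0.96 ± 0.17. In all, 4 of 11 genes rose and 5 fell in CD8a+ cDC, and 1 of 12 rose and 5 fell in CD11b+ cDC. The isoprenoid and prenylation genes had 2 of 12 higher and 4 lower in CD8a+ cDC, and 0 of 11 higher and 5 lower in CD11b+ cDC. Ch25h, which makes the SREBP inhibitor 25-hydroxycholesterol, lay between 3.20 and 3.36 in its group means and was not called in any comparison. These means lie below the median of every array, and whether they are above background is not known.

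CD8a+ and CD11b+ cDC after R848 could be compared within 1 array set, with values for all 8 genes. Of these, 4 were higher in CD8a+ cDC and none was called lower, at a background of 12.4% called (5.74% higher). Lss stood at 5.34, 5.42, 5.67, 5.69 and 5.05 in CD8a+ cDC, against 4.53, 4.46 and 4.30 in CD11b+ cDC, and differed by 1.01 ± 0.16 (adjusted p = 1.2e-04). These CD11b+ values lie below the medians of their arrays (4.71 to 4.74) and whether they are above background is not known, so no fold change is given. Sqle, the squalene epoxidase, stood at 8.69, 8.63, 8.47, 8.52 and 8.16 in CD8a+ cDC, against 7.76, 7.45 and 7.93 in CD11b+ cDC, and differed by 0.78 ± 0.14 (adjusted p = 0.0057). Hmgcs1 stood at 9.68, 9.77, 9.66, 9.83 and 9.66 in CD8a+ cDC, against 9.48, 9.31 and 9.13 in CD11b+ cDC, and differed by 0.42 ± 0.10 (adjusted p = 0.0070). For these 3 genes no array of one cell type overlapped the other. With Fdps, 4 of 8 genes had every CD8a+ array above every CD11b+ array, as had 8.93% of all genes.

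Idi1 was the fourth gene called, at 0.61 ± 0.20 (adjusted p = 0.049), but its groups overlapped, and the call was lost under 10 of 20 alternatives. Among these was leaving out any of CD8a+ replicates 1 to 4 or CD11b+ replicates 2 and 3, where the difference ran from 0.52 to 0.65. The Hmgcs1 call was lost without CD11b+ replicate 3 (0.33, adjusted p = 0.074). Fdps differed by 0.29 ± 0.11 (adjusted p = 0.096), Fdft1 by 0.24 ± 0.15 (adjusted p = 0.451), Cyp51 by 0.06 ± 0.13 (adjusted p = 0.889) and Insig1 by -0.26 ± 0.13 (adjusted p = 0.229). A second cluster with the symbol Fdft1, not beside the gene's own locus and with a secure row in the R848 arrays alone, differed by 0.50 ± 0.09 (adjusted p = 0.0066) with no overlap. The clusters thus disagree on the call. The median of the 8 genes was 0.35, against 0.03 for all genes. Of 10 further synthesis enzymes none was called higher and 1 was lower, Tm7sf2 at -0.71 ± 0.16. B cell markers were lower in CD8a+ than in CD11b+ cDC for 5 of 5 genes, and their part in these differences was not tested.

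**Figure D3:**
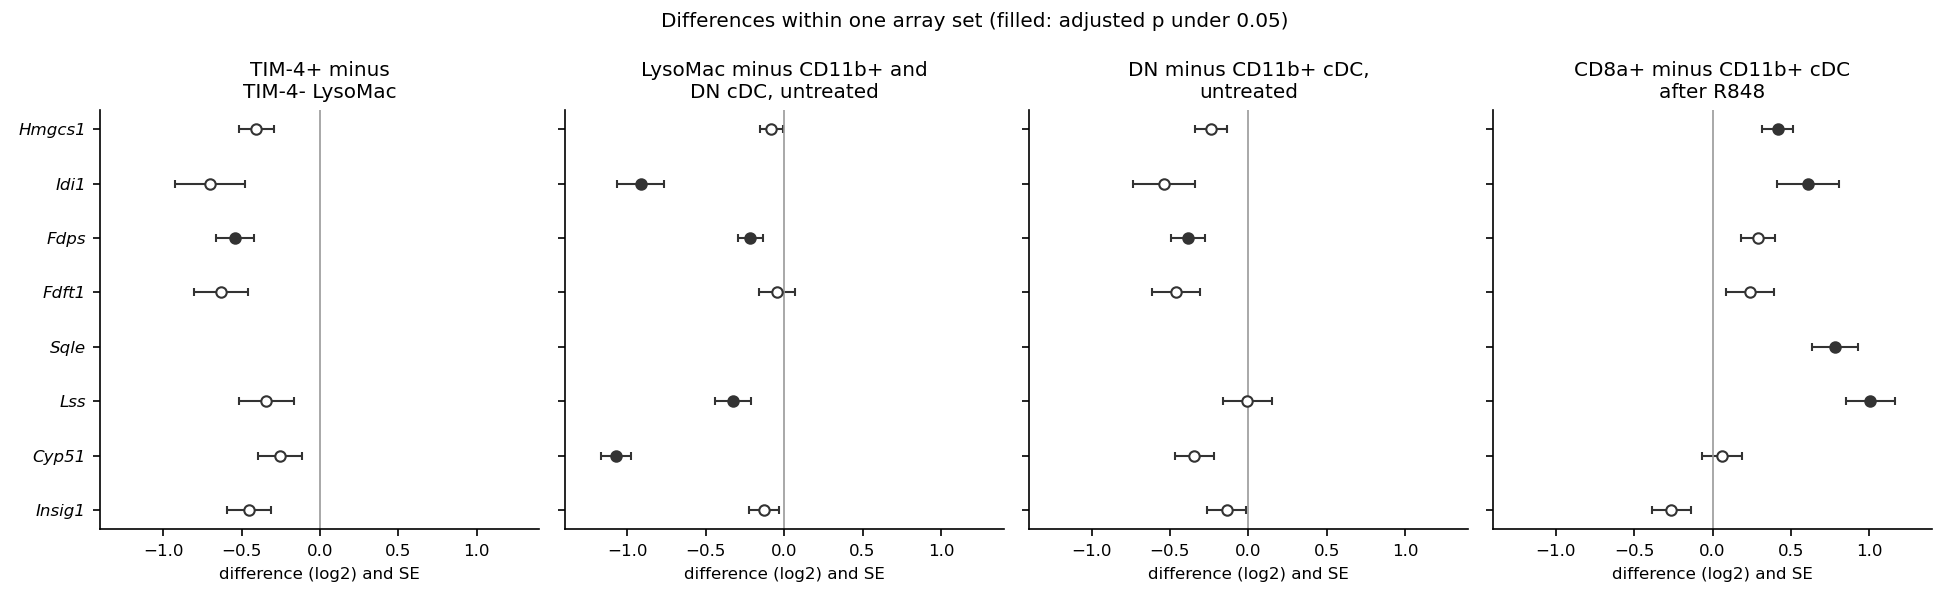
Log2 differences (horizontal axis) with their SE for the 8 genes in the 4 comparisons made within 1 array set. Filled symbols passed an adjusted p of 0.05, and Sqle has no secure row in the untreated arrays. After R848 the 4 filled points lie right of 0, with the low-signal Lss at 1.01 and Sqle at 0.78, and in LysoMac Cyp51 at -1.07 and Idi1 at -0.91 lie farthest left.

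In untreated LysoMac (6 arrays) the pathway split against CD11b+ and DN cDC (8 arrays). Cyp51 stood at 6.61, 6.63 and 6.90 in TIM-4+ and at 6.91, 7.23 and 6.77 in TIM-4- LysoMac, against 7.78, 7.63 and 7.81 in DN cDC and 7.77 to 8.31 in CD11b+ cDC. No LysoMac array reached any cDC array, and the difference was -1.07 ± 0.10, or 2.10-fold lower (adjusted p = 1.4e-08). Idi1 stood at 5.90, 6.32 and 6.37 in TIM-4+ and at 7.09, 6.96 and 6.64 in TIM-4- LysoMac, against 7.04, 7.22 and 7.32 in DN cDC and 7.10 to 8.14 in CD11b+ cDC. The highest TIM-4- array overlapped the lowest DN array, and the difference was -0.91 ± 0.15 (adjusted p = 4.0e-05).

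Of 7 genes 4 were lower in LysoMac and none was called higher, at a background of 31.5% called (16.8% lower), and their median was -0.22, against 0.00 for all genes. The other calls were Lss at -0.33 ± 0.12 (adjusted p = 0.039) and Fdps at -0.22 ± 0.08 (adjusted p = 0.048), which were lost under 11 and 18 of 26 alternatives. The Lss group means, from 4.27 to 4.77, lay near or below the medians of these arrays (4.76 to 4.90). Whether they are above background is not known. Without 1 array the Fdps difference ran from -0.26 to -0.18, and its call was lost in 11 of 14 such fits, all but those without CD11b+ replicate 2, TIM-4- replicate 3 or TIM-4+ replicate 3. The Lss difference ran from -0.40 to -0.27, and its call was lost without CD11b+ replicate 2 or 3, DN replicate 2 or 3, TIM-4- replicate 1 or 3, or TIM-4+ replicate 2 or 3. Hmgcs1 (-0.08 ± 0.07), Fdft1 (-0.04 ± 0.12) and Insig1 (-0.13 ± 0.09) were not called. With a looser match of rows, Sqle averaged 6.53 in TIM-4+ and 7.10 in TIM-4- LysoMac, against 7.29 in DN and 7.85 in CD11b+ cDC. Its LysoMac difference was then -0.75 ± 0.11 (adjusted p = 1.2e-05).

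The further enzymes lay on both sides. Of 9 measured, 4 were higher in LysoMac and 1 was lower. Dhcr7 was higher by 2.02 ± 0.22, Tm7sf2 by 1.46 ± 0.12 and Mvd by 0.78 ± 0.11, while the phosphomevalonate kinase Pmvk was lower at -0.69 ± 0.14. Srebf2 was lower in LysoMac at -1.02 ± 0.11, and the endoplasmic reticulum protein Erlin1, which binds the SREBP and SCAP complex, at -1.67 ± 0.13, among 3 of 7 regulators lower and 1 higher. Genes of uptake and efflux were mostly higher. Of 10 uptake genes 7 were higher and 2 lower, with the scavenger receptor Msr1 at 5.20 ± 0.27, Lipa at 1.71 ± 0.14 and Npc2, which carries cholesterol out of lysosomes, at 1.71 ± 0.18. Of 7 LXR, efflux and esterification genes 4 were higher and 1 lower, with the exporter Abca1 at 4.31 ± 0.09 and Nr1h3, which codes for LXR alpha, at 4.02 ± 0.17. Cell cycle genes were lower in LysoMac for 17 of 18 genes. Of markers of other cells, 8 of 10 stromal and endothelial, 4 of 5 T cell, 4 of 10 epithelial and 3 of 5 B cell genes were lower, with 1 B cell gene higher. The part of these in the lower Cyp51 and Idi1 was not tested.

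**Figure D4:**
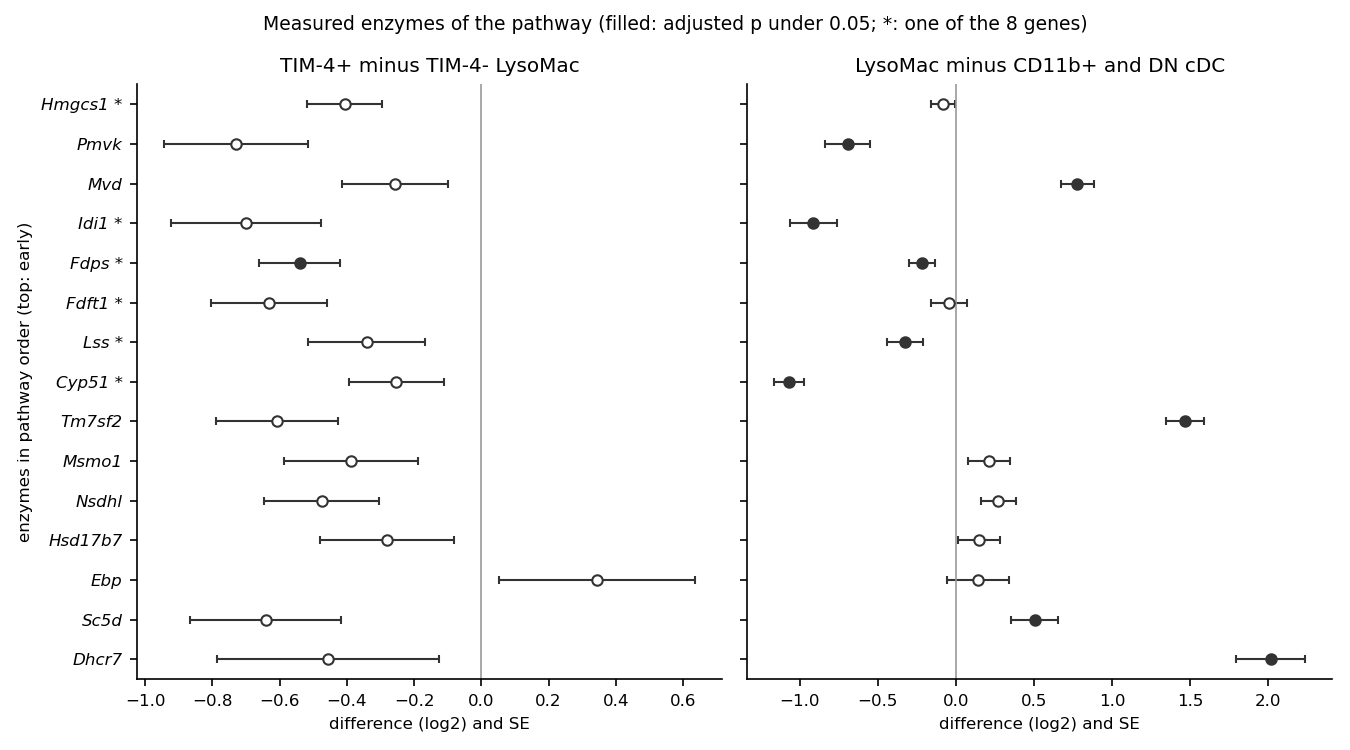
Log2 differences (horizontal axis) with their SE for the measured synthesis enzymes in the order in which they act, from Hmgcs1 at the top to Dhcr7 at the bottom, with a star on those of the 8 genes. Filled symbols passed an adjusted p of 0.05. In the left panel (TIM-4+ minus TIM-4- LysoMac) every enzyme but Ebp lies left of 0, and in the right panel (LysoMac minus CD11b+ and DN cDC) Dhcr7 at 2.02 and Cyp51 at -1.07 lie at the 2 ends.

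Between the 2 kinds of LysoMac the differences were small and mostly in one direction. Fdps stood at 7.45, 7.50 and 7.64 in TIM-4+ and at 7.93, 8.13 and 8.16 in TIM-4- LysoMac, a difference of -0.54 ± 0.12 (adjusted p = 0.049). It was 1 of 7 genes called, at a background of 0.451% called (0.258% lower). The call was lost without any 1 of the 6 LysoMac arrays (differences from -0.61 to -0.50) and under 12 of 17 alternatives. Idi1 differed by -0.70 ± 0.22 (adjusted p = 0.345), with the values given above. Fdft1 stood at 7.26, 7.14 and 7.64 in TIM-4+ and at 7.85, 8.06 and 8.02 in TIM-4- LysoMac, and differed by -0.63 ± 0.17 (adjusted p = 0.172).

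Hmgcs1 stood at 8.31, 8.35 and 8.07 in TIM-4+ and at 8.58, 8.72 and 8.64 in TIM-4- LysoMac, and differed by -0.41 ± 0.11 (adjusted p = 0.190). Insig1 stood at 8.44, 8.21 and 7.81 in TIM-4+ and at 8.67, 8.59 and 8.56 in TIM-4- LysoMac, and differed by -0.46 ± 0.14 (adjusted p = 0.306). In these 5 genes every TIM-4+ array lay below every TIM-4- array, as it did for 5.81% of all genes. Lss (-0.34 ± 0.17) and Cyp51 (-0.25 ± 0.14) overlapped. The median of the 7 genes was -0.46, against -0.00 for all genes. The 9 further synthesis enzymes had the same median of -0.46 and none was called, with 4 of 9 at an unadjusted p under 0.05 in limma. Abcg1 (0.62 ± 0.26) and Abca1 (0.30 ± 0.14) were not called either. None of 5 T cell, 5 B cell, 10 stromal and 10 epithelial markers was called by limma between these groups, while 1 of 6 cDC markers and 1 of 6 cDC2 markers was lower in TIM-4+ LysoMac. At an unadjusted p under 0.05 in limma were 3 of 10 stromal, 1 of 5 T cell, 0 of 5 B cell and 0 of 10 epithelial markers. Stromal differences reached 1.36, epithelial ones ran from -0.87 to 1.18 and T cell ones from -0.93 to 0.20. The part of such RNA in the lower values was not tested.

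Between DN cDC, which lack CD11b, and CD11b+ cDC, 1 of 7 genes was called, Fdps, at a background of 4.22% (1.69% lower). Fdps stood at 7.77, 7.87 and 7.82 in DN cDC, against 8.29, 7.86, 8.24, 8.22 and 8.43 in CD11b+ cDC, a difference of -0.39 ± 0.11 (adjusted p = 0.044). CD11b+ replicate 2 lay among the DN arrays. The call was lost in 7 of 8 fits without 1 array, all but that without CD11b+ replicate 2, with differences from -0.48 to -0.33. Without that replicate Idi1 (-0.69, adjusted p = 0.024) and Cyp51 (-0.42, adjusted p = 0.049) were called, and without DN replicate 2 Fdft1 was (-0.63, adjusted p = 0.041). With all arrays Idi1 was at -0.54 ± 0.20 (adjusted p = 0.155), Fdft1 at -0.46 ± 0.15 (adjusted p = 0.109) and Cyp51 at -0.34 ± 0.13 (adjusted p = 0.158). Lss was at -0.01 ± 0.16 (adjusted p = 0.990), and from -0.12 to 0.15 without 1 array. With a looser match of rows, Sqle was lower in DN cDC at -0.57 ± 0.15 (adjusted p = 0.032), with no overlap. Dhcr7 was the further enzyme called, at -1.14 ± 0.30, of 9 measured. Stromal and endothelial markers were higher in DN cDC for 9 of 10 genes, with a mean level over 9 of them from 6.05 to 6.56, against 4.15 to 4.81 in CD11b+ cDC. Sparc was higher by 4.97 ± 0.47, and the part of such RNA in the lower values was not tested.

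Untreated CD8a+ cDC were lower than untreated CD11b+ cDC in 4 of 4 measured genes, at a background of 47.4% called (38.7% lower). The differences were -0.97 ± 0.20 for Idi1 (adjusted p = 4.8e-04), -0.42 ± 0.15 for Fdft1 (adjusted p = 0.029), -0.42 ± 0.13 for Insig1 (adjusted p = 0.0087) and -0.39 ± 0.11 for Fdps (adjusted p = 0.0060). With a common median only Idi1 was called, at -0.72. With looser rows Hmgcs1 went the other way, at 0.64 (adjusted p = 6.2e-05), and Lss was lower, at -0.43 (adjusted p = 0.025). The rows next to these correlated at only 0.493 and 0.610, so neither match is secure. Sqle, whose looser row had neighbours that correlated at 0.969, was at -0.37 (adjusted p = 0.0503) and was not called. Fdft1 was also lost without replicate 4 (-0.38) or 5 (-0.34) of the CD11b+ arrays and replicate 1 (-0.40) or 2 (-0.32) of the CD8a+ arrays. After R848 the sign was the other way for Idi1, as given above. Insig1 stood at 8.22, 8.07 and 8.18 in untreated CD8a+ cDC, against 8.66, 8.49, 8.49, 8.69 and 8.55 in untreated CD11b+ cDC, with no overlap. Of markers of other cells, 3 of 4 T cell, 4 of 7 macrophage, 3 of 8 epithelial, 3 of 9 stromal and 2 of 4 B cell genes were also lower in CD8a+ cDC and none was called higher. Their part in the lower values was not tested. Of 8 further enzymes 1 was higher in CD8a+ cDC and 4 were lower, Dhcr7 at -1.82 ± 0.30 among them and Nsdhl at 1.23 ± 0.15 against the rest.

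Between LysoMac and untreated CD8a+ cDC no difference passed the test with secure rows. Of 4 genes 0 were called by limma, and 0 had an unadjusted p under 0.05, while 55.2% of all genes were called. The differences were -0.21 ± 0.19 for Idi1, -0.02 ± 0.11 for Fdps, 0.15 ± 0.15 for Fdft1 and 0.23 ± 0.12 for Insig1, against a median of 0.17 over all genes. With a common median Idi1 (-0.49) and Fdps (-0.30) were called lower, and Fdft1 (-0.13) and Insig1 (-0.05) changed sign. Insig1 was called higher without TIM-4+ replicate 3 (0.31). With a looser match of rows, Sqle was lower in LysoMac at -0.67 ± 0.15 (adjusted p = 5.4e-04), with no overlap. Hmgcs1 was then called lower as well, at -0.84, on a row that is not secure.

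By group mean, Idi1 was ordered from R848 CD8a+ cDC (10.21 ± 0.26) and R848 CD11b+ cDC (9.60 ± 0.25) through untreated CD11b+ (7.73 ± 0.39), DN (7.19 ± 0.14), TIM-4- LysoMac (6.90 ± 0.23) and untreated CD8a+ cDC (6.75 ± 0.33) to TIM-4+ LysoMac (6.20 ± 0.26), as mean ± SD over 3 or 5 arrays. Neighbours in this order overlapped except at 2 steps, between treated and untreated CD11b+ cDC and between untreated CD8a+ cDC and TIM-4+ LysoMac. Insig1 spread least. Its means ran from 8.71 ± 0.29 in R848 CD11b+ cDC and 8.61 ± 0.06 in TIM-4- LysoMac to 8.15 ± 0.08 in untreated CD8a+ cDC and 8.15 ± 0.31 in TIM-4+ LysoMac.

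Over the set of 14 untreated arrays all 21 pairs of the 7 measured genes had a correlation above 0, from 0.264 to 0.919 with a median of 0.582. Within groups, on deviations from each group's mean, the same pairs ran from -0.386 to 0.733 with a median of 0.183, and 8 of 21 were below 0. Lss, whose signal was low, was in 5 of those 8. Over the 8 R848 arrays 21 of 28 pairs were above 0, with a range from -0.742 to 0.911. The arrays of a group share a cell type, and the correlations over all arrays include the differences between groups. The gene most like the mean of the 7 over the 14 arrays, among 5749 with a mean of at least 6, was Pmvk at 0.94, itself an enzyme of the mevalonate route. The next were Ifitm6, Klk8 and Plxnc1 at 0.93, 0.93 and 0.92, then Flna, H2-DMa, Tmem131l and Smu1 between 0.90 and 0.91. Over the 8 R848 arrays the same genes correlated between -0.70 (Ifitm6) and 0.42 (Tmem131l), with Pmvk at 0.00.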

How the data were processed

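RNA of sorted cells was measured on 25 arrays in 7 groups. Per the submitters' processing notes, the authors made the deposited log2 values with RMA in Affymetrix Expression Console 1.4.1. No source used here gives the genome build or says if RMA was run once for all arrays. The number of arrays limits the precision.

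Rows of both untreated array sets were aligned in order to the R848 rows by banded dynamic programming (Python 3.11.15). Rows were accepted where 3 gap settings gave 1 partner, at least 2 rows on each side had no gap, and neighbours correlated at 0.8 or more. This kept 22960 and 22791 of 28939 rows. In data simulated from the R848 arrays alone, at most 0.710% of accepted rows were wrong. That simulation held no difference in treatment or scale between array sets, so it does not give the error of the real match. With rows rolled out of place 395 and 800 were accepted. Each gene took 1 cluster, the one with a value in the most arrays. Ties went to a cluster beside the gene's own locus, then to the one of highest mean.

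Groups were compared with limma 3.58.1 in R 4.3.3 over all 25 arrays, with Benjamini-Hochberg adjustment over all genes tested. Tested on simulated data, the TIM-4 comparison recovered 89 of 100 genes changed 2-fold, with 11 false calls. That of DN cDC recovered 82 of 100, with 8 false calls. None of the 8 genes differed by as much as 2-fold in either comparison, and recovery of smaller changes was not simulated. The members and lists were chosen with earlier results of these data known. For each list, counts and at most 4 called genes of largest difference are named, with the 8 members, Srebf2 and Ch25h, and other genes named were chosen after their values were seen. Alternatives covered scaling, array weights, a replicate block, filters, cluster choice, alignment and leaving out each array. Looser row acceptance, the second Idi1 cluster and LysoMac against CD11b+ cDC alone were added after seeing the data.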

Additional observations from a re-analysis of the deposited data

Results flagged for a closer look

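In 3 genes the R848 response differed between the cell types by the test of the difference itself, CD8a+ cDC minus CD11b+ cDC: Idi1 by 1.58, Fdps by 0.68 and Fdft1 by 0.66 log2 units. The responses behind them were 3.46 and 1.87 for Idi1, 0.83 and 0.16 for Fdps, and 2.16 and 1.50 for Fdft1, with CD8a+ cDC first. Under a common median Fdps (0.44) and Fdft1 (0.42) lost their calls, and Fdft1 lost its call under 7 of 28 alternatives. In CD8a+ and CD11b+ cDC alike, treatment and array set cannot be told apart. Only the groups of 5 arrays, R848 CD8a+ and untreated CD11b+ cDC, could be checked for an array far from the others, and none was found in 15 sets of values of 1 gene in 1 group.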

How the results depend on the processing

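None of the 8 genes changed direction where it was called, over 13 alternatives that kept all arrays and 25 that left 1 out. Of single-gene results, 562 kept their side of the threshold under the first kind, 38 lost a call and 8 gained one, and with 1 array left out the counts were 426, 49 and 5. For TIM-4+ against TIM-4- LysoMac the 1 call became 0 under a common median, the replicate block, the groups alone, low genes left out, an intensity trend and other profiles, and all genes called fell from 75 to 28 with the groups alone. For LysoMac against CD11b+ and DN cDC the 4 calls became 2 under a common median, array weights or low genes left out. With low genes left out Lss was itself removed and not tested. For DN against CD11b+ cDC the 1 call became 0 under cyclic loess, array weights, the replicate block, the groups alone, low genes left out or a trend, and 2 with looser rows, and all genes called were 324 with the groups alone and 350 with low genes left out, against 702. With stricter rows both comparisons also had 0 calls, but of 4 genes that did not include Fdps, which had no row there and was not tested. For untreated CD8a+ against CD11b+ cDC the 4 calls became 1 under a common median or cyclic loess and 2 of 2 with stricter rows, and 6820 genes became 3350 with low genes left out and 4035 with stricter rows. For LysoMac against CD8a+ cDC 0 became 2 under a common median (Idi1 and Fdps) or looser rows (Sqle and Hmgcs1). There 7944 genes became 4077 with low genes left out and 4660 with stricter rows. After R848, low genes left out gave 4047 genes in CD11b+ cDC (6798 with all) and 4337 in CD8a+ cDC (9224), where looser rows called 6 of 7 members. For the difference between the responses 3 calls became 1 under a common median and 5 with looser rows, which added Sqle and Lss. There 4741 genes became 3111, 2351 and 2804 under a common median, low genes left out and stricter rows. The filters test fewer genes, looser rows include insecure ones of Hmgcs1 and Lss, and no other cause was tested.

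Without 1 array, calls among the 8 genes ranged from 0 to 0 for TIM-4+ against TIM-4- LysoMac (45 to 77 of all genes), 2 to 3 for LysoMac against CD11b+ and DN cDC, 0 to 3 for DN against CD11b+ cDC, 2 to 4 for CD8a+ against CD11b+ cDC after R848 and 0 to 1 for LysoMac against CD8a+ cDC. Over all comparisons of 2 groups, deviations of arrays with the same replicate number correlated between -0.097 and 0.136. They ran from 0.035 to 0.133 for TIM-4 and from 0.024 to 0.136 for DN. In each of these, 2 of 3 arrays correlated best with their own number. With 3 pairs it cannot be told whether replicate numbers pair the samples. The replicate block called 67 genes for TIM-4 and 472 for DN. Without a block the counts were 75 and 702. The number of arrays limits what could be detected.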
